A study of Caenorhabditis elegans with 2 samples.

Results

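The cuticle collagen genes of Caenorhabditis elegans were examined for association of the tagged transcription factor ZTF-26. Members were the protein-coding genes of the Ensembl WBcel235 annotation whose names start with col-, which were 156 genes, and 15 collagens named for mutant phenotypes (dpy-2, dpy-3, dpy-5, dpy-7, dpy-8, dpy-9, dpy-10, dpy-13, rol-6, sqt-1, sqt-2, sqt-3, bli-1, bli-2 and lon-3). This gave 171 of 19973 annotated protein-coding genes. The assay was chromatin immunoprecipitation followed by sequencing (ChIP-seq), in which an anti-GFP antibody pulls down sonicated chromatin bound by a GFP fusion protein. The worms were of strain OP565, which carries the unc-119(tm4063) III allele and the transgene wgIs565, and which expresses ZTF-26 with a GFP-FLAG tag at its C-terminus. Populations of pooled males and females were synchronized by bleaching and starvation as L1 larvae and collected as young adults 56 h later, and whole organisms were used. Biological replicates 3 and 4 formed 1 group, so there was no condition to compare, and the control library named for the experiment was not analysed here. Signal from all tissues was mixed, and the cells that express the transgene are not given in the sources used here.

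Cuticle collagens are secreted by the epidermis, trimmed, cross-linked and assembled into the layered exoskeleton that the worm rebuilds at each molt. Their central domains are built of Gly-X-Y repeats, in which glycine recurs at a fixed spacing so that chains can wind into a triple helix. Individual collagens are made in particular larval or adult stages, and mutations in some of them give short (dumpy), rolling, blistered or long worms. The sequences of the members matched their names: glycine codons made up 20.2% of the codons in the members' longest coding sequences against 5.36% over all coding genes. At least 15% of codons were glycine in 162 of the 171 members. The 9 below that share were bli-1, col-17, col-56, col-69, col-76, col-87, col-128, col-163 and col-177, of which col-17 was lowest at 0.722%.

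The deposited pooled list held 28233 candidate peaks with signals from 22.3 to 1104, and the optimal list held 1929 peaks with signals of at least 90.2. Signal is the authors' own value for a peak, on a scale that is not given in the sources used here. It is used only to describe and rank peaks within a list. The optimal list was exactly the 1929 strongest pooled peaks, so an optimal peak is one of pooled rank 1929 or better. The lists of replicates 3 and 4 held 30000 and 20373 peaks, and the 1929 strongest of each are called that replicate's top list. No file used here gives read counts, so the depth behind each peak is unknown.

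A minority of collagen promoters held an optimal peak, at a share somewhat above that of all coding genes. Collagen coding exons held one far more often than those of other genes. An optimal summit, the highest point of an optimal peak, lay between 1000 bp upstream and 500 bp downstream of a transcript 5' end in 17 of the 171 collagen genes, or 9.94% (exact 95% Clopper-Pearson interval, 5.9 to 15.4). The same share over all protein-coding genes was 5.69%. A pooled candidate of any rank lay in the window of 77 members (45%, interval 37.4 to 52.8), against 40.1% of all coding genes. Candidate peaks in these windows were therefore about as common at collagens as at other genes. For the top list of replicate 3 the count was 13 (7.6%, 4.11 to 12.6) against 5.75%, and for that of replicate 4 it was 18 (10.5%, 6.36 to 16.1) against 5.45%. Both top lists had a summit in the windows of 10 members (5.85%, 2.84 to 10.5), against 4.22% of coding genes. In the pooled candidates, the replicate 3 list and the shared set, the background share fell inside the members' interval, for the optimal list it fell just below, and for the replicate 4 list it fell below. These intervals cover counting error only and treat genes as independent, and no test was run.

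The place of the summits set the collagens apart more than their number. Coding exons were counted after the peak positions had been seen, so this count is a description. An optimal summit lay in the gene's own coding exons in 15 of 171 collagens (8.77%, exact interval 4.99 to 14.1), against 139 of all 19973 coding genes (0.696%). The replicates gave the same contrast when taken alone. The top list of replicate 3 had a summit in the coding exons of 13 members (7.6%) against 0.806% of coding genes, and that of replicate 4 in 14 members (8.19%) against 0.921%. Candidates of any rank lay in the coding exons of 107 members (62.6%, 54.9 to 69.8) against 27.5% of coding genes. Counting either place, 24 collagens (14%, 9.2 to 20.2) had an optimal summit against 5.99% of coding genes.

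**Figure D1:**
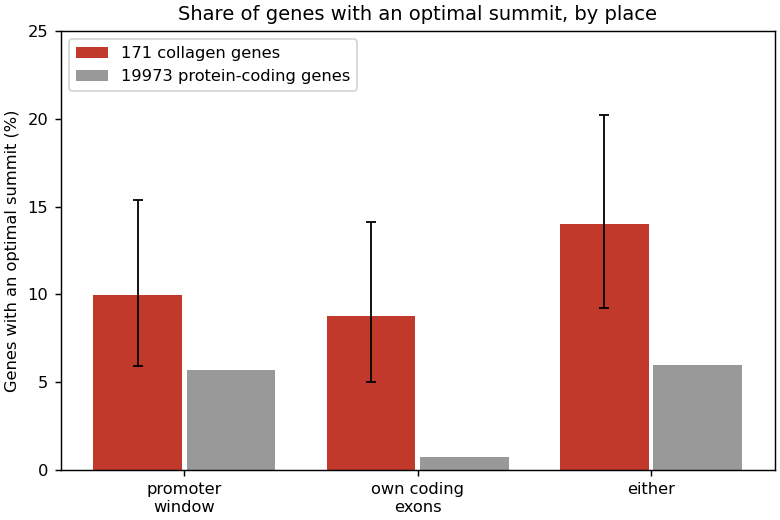
Bars give the percentage of genes with an optimal ZTF-26 summit in the promoter window, in the gene's own coding exons, or in either, for the 171 collagen genes and for all 19973 protein-coding genes, and whiskers are exact 95% binomial intervals for counting error. The promoter bars stand at 9.94% and 5.69%, and the coding-exon bars at 8.77% and 0.696%.

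Collagen coding sequence made up 0.681% of all coding bases but held 21 of the 153 optimal summits that lay in coding exons, or 13.7%. This corresponded to 125 optimal summits per Mb of collagen coding sequence against 6.20 per Mb over all coding genes. Of the candidates in coding exons, 14% of the 150 in collagens were optimal against 1.86% of the 8220 in all coding genes. Of the 50 strongest optimal summits in coding exons, 9 were in a collagen. The coding length of the members was similar to that of other genes, with a median of 912 bp against 990 bp. The median pooled signal of the strongest coding-exon summit per gene was 122 in the 15 collagens and 114 over the 139 coding genes.

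The summits of the 5 strongest collagens in this set are shown as the WBcel235 (ce11) genome sequence from RefSeq at the strongest coding summit of each gene, with 50 bases on either side, read along the gene's strand. They show what the tagged factor's peaks sit on, and capitals mark the in-frame glycine codons. The intervals are chrIV:10216891-10216991 on the plus strand for col-124, chrV:5836209-5836309 on the minus strand for col-140, chrII:10707863-10707963 on the plus strand for col-80, chrIV:9563868-9563968 on the plus strand for col-122 and chrX:422265-422365 on the plus strand for col-19.
col-124: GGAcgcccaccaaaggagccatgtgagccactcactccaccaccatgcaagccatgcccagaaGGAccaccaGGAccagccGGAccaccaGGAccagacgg
col-140: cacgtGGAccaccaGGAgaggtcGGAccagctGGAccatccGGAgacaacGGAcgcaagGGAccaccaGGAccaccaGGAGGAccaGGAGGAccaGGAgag
col-80: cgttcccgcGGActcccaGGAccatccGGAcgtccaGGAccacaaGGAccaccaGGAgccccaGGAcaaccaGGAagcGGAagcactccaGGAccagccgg
col-122: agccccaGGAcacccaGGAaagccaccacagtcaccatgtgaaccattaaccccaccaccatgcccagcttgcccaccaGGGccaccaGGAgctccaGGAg
col-19: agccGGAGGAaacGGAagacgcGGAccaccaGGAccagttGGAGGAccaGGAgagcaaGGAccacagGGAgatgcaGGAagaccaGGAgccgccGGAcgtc
Glycine made up 13 of the 33 whole codons in the col-140 and col-19 windows, and 11 of those in each window fell in the same position of the Gly-X-Y register. The col-80 window held 10 glycine codons. The col-124 and col-122 windows held 5 each, and both windows include a long stretch without the repeat. Over the 21 collagen coding summits, glycine made up a median 30.3% of codons (range 0 to 39.4%), and 15 of the 21 exceeded 15%. The share was 15.2%, just above that cut, at the strongest summits of col-124 and col-122 and at that of col-119.

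The strongest collagen peak was that of col-124, at chrIV:10216551-10217415. Its summit was in a coding exon, 490 bp past the 5' end, and its signal was 325 pooled, 217 in replicate 3 and 113 in replicate 4, at ranks 103, 95 and 115. It was high in all 3 lists, and the replicate summits lay 2 and 0 bp from the pooled one. The summit also lay in a non-coding stretch of qns-1, the gene for glutamine-dependent NAD synthetase. It fell in that gene's window too. A second optimal summit of signal 185 lay further into the coding exon of col-124.

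The gene of col-140 held its strongest summit 575 bp downstream of the 5' end, beyond the promoter window, with a pooled signal of 294, and 166 and 138 in replicates 3 and 4. The replicate 4 rank of 75 was the best of any collagen coding summit. A weaker summit of the same gene lay inside the window at 376 bp, with signals of 195, 106 and 86.6, and it was this one that put col-140 among the 17 promoter members. No other gene overlapped either summit. Both summits belonged to 1 called peak, chrV:5835780-5836642, and both were high in each replicate.

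Of the 15 collagens with a coding summit, 7 had no optimal summit in the promoter window: col-80, col-122, col-19, col-130, col-139, col-39 and col-20. Of these, col-19 and, for its window candidate, col-130 are in the rule for named genes, and the other 5 are named because of their values. The summit of col-80 lay 712 bp from the 5' end and had signals of 247, 165 and 94.1 in the pooled list, replicate 3 and replicate 4. That of col-122, at chrIV:9563444-9564482, had signals of 240.3, 163 and 79.4, and a second optimal summit in the same gene had a pooled signal of 213. Both genes were high in all 3 lists, and stood below col-124 and the stronger summit of col-140 in the pooled list and replicate 3. A replicate's value here is its strongest summit in the gene's coding exons, which need not lie at the pooled summit. The pooled summits of col-80 and col-39 also lay in non-coding stretches of dph-2. Those of col-122, col-19 and col-130 also lay in non-coding stretches of lron-14, ZK1193.2 and ugt-65, in that order. The col-122 summit fell in the window of lron-14 too.

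The gene col-19 encodes a collagen of the adult cuticle and is widely used as a marker of the adult epidermis. Its summit, 608 bp from the 5' end in the peak chrX:422126-422427, had a pooled signal of 156 at rank 636. The strongest coding-exon summits of replicates 3 and 4 had signals of 121 and 45.0, at ranks 420 and 1284. They lay 557 and 301 bp from the 5' end, so these values are of different places. The pooled summit was optimal, and both replicate summits were in their top lists. The gene col-20 lay at the other end of the range with 91.0, 59.1 and 40.8. The remaining genes of the 7 had pooled signals of 115 (col-130), 110.0 (col-139) and 109.8 (col-39). Col-39 was the exception among them in having the higher value in replicate 4, at 62.1 against 48.6 in replicate 3. Those 2 summits lay at different places, 693 and 869 bp from the 5' end.

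The other coding summits were at col-42, col-184, col-181, col-160, col-129 and col-119, with pooled signals from 92.7 at col-119 to 135 at col-42. Of these, the col-160 summit also lay in a non-coding stretch of col-159, and the col-119 summit in one of pdzd-8. In 14 of the 15 genes both replicates had a summit in the same gene's coding exons, and in 9 both were in the replicates' top lists. The exception was col-42, with 139.5 in replicate 3 and no replicate 4 summit in its coding exons. Along the gene, the 21 summits lay between 11% and 89.2% of the length from the 5' end, with a median of 59.3%, and 13 lay more than 500 bp from it. The map of summits shows this spread through the gene bodies. The median gene was short, at 1219 bp for members against 2027 bp for all coding genes.

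**Figure D2:**
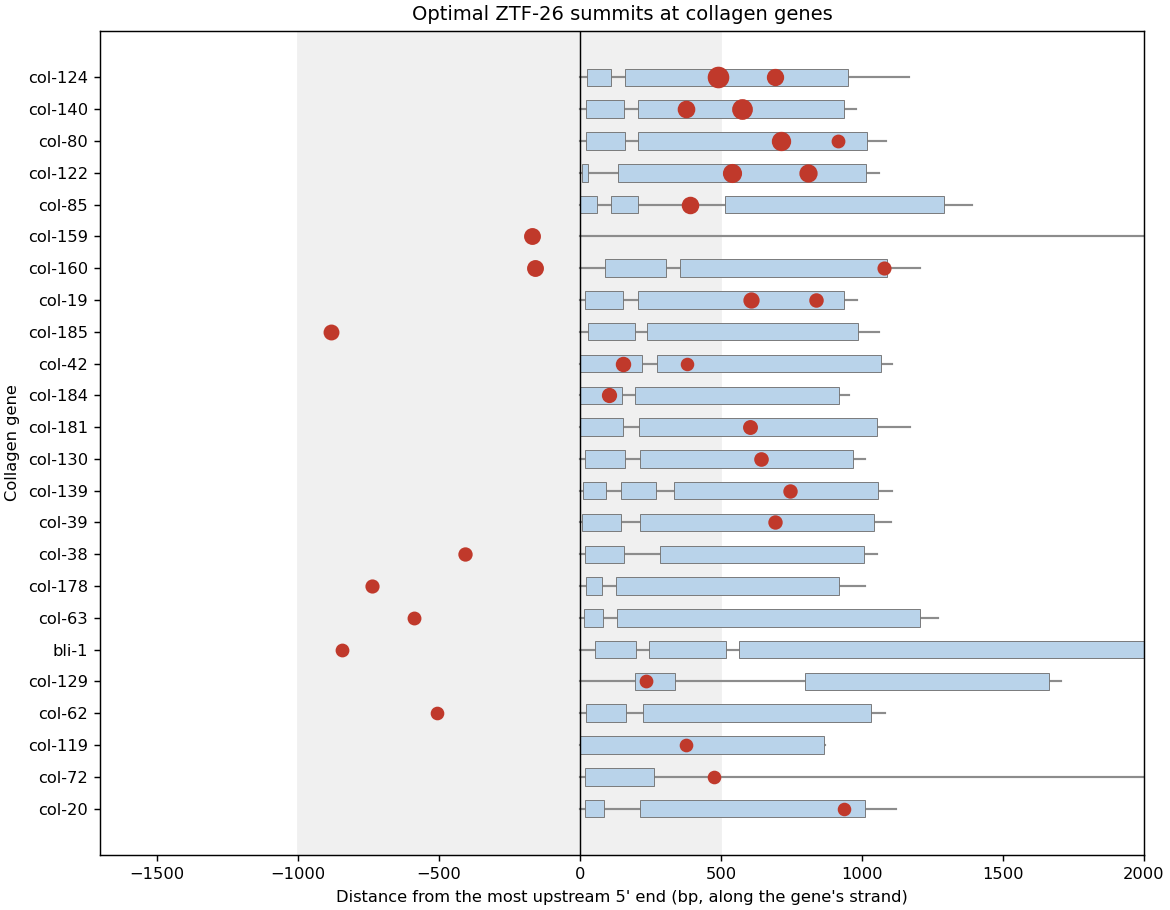
Each row is 1 of the 24 collagen genes with an optimal summit in its promoter window (grey band) or coding exons (blue boxes), the horizontal axis is the distance in bp from the most upstream 5' end along the gene's strand, and red points are optimal summits whose area grows with pooled signal. Rows run from the highest pooled signal at col-124 to the lowest at col-20, the strongest points lie inside coding exons, the grey band is drawn for the most upstream 5' end although any transcript's 5' end counted, and genes longer than the axis (bli-1, col-72 and col-159) are cut at its right edge.

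Among the 17 promoter members, pooled signals ran from 92.5 at col-72 to 325 at col-124, with a median of 122, against 90.2 to 1104 with a median of 137 over the 1136 coding genes with an optimal summit in the window. The best collagen rank was 103, and 7 of the 17 lay above its median signal of 131. Of the 17 genes, 9 had the summit downstream of their nearest 5' end (52.9%, interval 27.8 to 77), against 149 of 1119 other coding genes (13.3%). The summit lay in the gene's own coding exon in 7 of them (41.2%), in an intron in 2 and outside the gene in 8. For other coding genes the coding-exon share was 4.65%. The median position was 90 bp downstream in the collagens and -255 bp, that is upstream, in the other genes. Coding exons took up 23.6% of the bases of member windows against 17.9% of those of all coding genes. The position of summits was also looked at after values had been seen.

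Among summits upstream of or outside collagen coding sequence, the strongest sequences came from col-85, from the pair col-159 and col-160, and from col-185. They are shown in the same way, along the collagen's strand, because they differ in kind from the repeats above. Capitals mark a match to one of the words searched, CTCTCTC read on the other strand, and the other 2 hold none of the words. The intervals are chrII:12494655-12494755, chrV:13202297-13202397 and chrX:13511928-13512028, all on the minus strand.
col-85: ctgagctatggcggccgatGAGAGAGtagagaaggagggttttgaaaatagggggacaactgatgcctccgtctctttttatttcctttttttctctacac
col-159 and col-160: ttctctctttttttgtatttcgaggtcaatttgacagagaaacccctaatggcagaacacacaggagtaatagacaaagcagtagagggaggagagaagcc
col-185: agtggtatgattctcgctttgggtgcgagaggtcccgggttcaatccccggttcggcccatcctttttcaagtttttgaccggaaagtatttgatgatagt
The col-185 sequence includes part of an annotated tRNA gene, and none of the 3 codes for the Gly-X-Y repeat.

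The col-85 summit was intronic, 390 bp past the 5' end and 36 bp from a tRNA gene, with signals of 191, 108 and 73.3 in the pooled list, replicate 3 and replicate 4. The genes col-159 and col-160 share a 5' region and overlap on the map, and they shared 1 summit, 170 and 158 bp upstream of their nearest 5' ends, with signals of 173, 100.2 and 79.9. This was the strongest upstream summit at a collagen, and counting it once leaves 16 distinct strongest summits for the 17 genes. The col-185 summit, 881 bp upstream, was inside a tRNA gene and the noncoding RNA gene H06A10.3, with signals of 147, 61.2 and 83.6. At col-85 and col-185, signal from the collagen and from the tRNA gene cannot be told apart.

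Several other upstream summits also lay in the windows of other genes. The col-38 summit, 406 bp upstream with signals of 109, 75.0 and 31.3, was also in the window of rpl-5, which encodes a large-subunit ribosomal protein, 433 bp from its 5' end. The col-62 summit, with 92.9, 53.1 and 41.4, lay 508 bp from the collagen and 68 bp from the 5' end of C15A11.7, its nearest. That of col-63, 587 bp upstream with 98.1, 58.0 and 36.3, lay within ceh-8, a homeobox gene, and within a noncoding RNA gene. The summit assigned to bli-1 lay 845 bp upstream of it, in the coding exon of its neighbour col-80. In all, 15 of the 17 genes had their own 5' end as the nearest coding one. The summit was shared with the window of a non-collagen coding gene in 3, with that of a noncoding gene in 5, and with no other gene's window in 8. Among those 8, the summit of bli-1 still lay inside col-80 and dph-2, and that of col-119 inside pdzd-8. The pair col-159 and col-160 shared theirs with each other.

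Of the remaining promoter members, col-178 had a summit 736 bp upstream with signals of 105, 68.4 and 34.3, and col-72 had 92.5, 58.0 and 33.9 at an intronic summit 460 bp downstream. The summits of col-42, col-184, col-181, col-129 and col-119 were those already given for coding exons. Just inside the optimal list stood col-72 at 92.5, col-119 at 92.7 and col-62 at 92.9. Just outside stood col-81 at 87.9 and rank 2024, 27 bp downstream of its 5' end, with 50.2 in replicate 3 and 44.4 in replicate 4. It was followed by col-106 at 82.3, col-71 at 63.0, col-94 at 62.4 and col-130, whose window summit had 61.4. The signals of col-72 and col-81, on either side of the limit of the optimal list, were close.

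**Figure D3:**
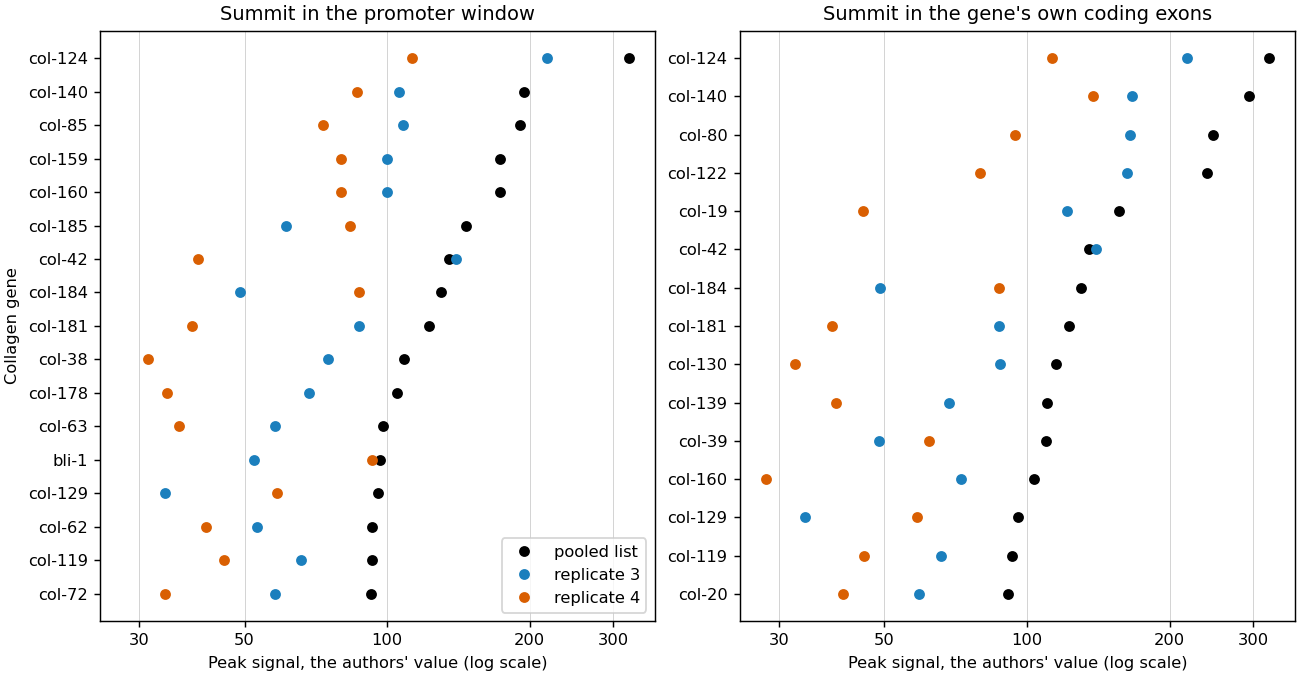
Points give the authors' peak signal on a log axis, coloured by list (pooled, replicate 3 or replicate 4), for the 17 collagens with an optimal summit in the promoter window (left) and the 15 with one in their coding exons (right). Pooled signals run from 92.5 to 325 on the left and from 91.0 to 325 on the right, and replicate 4 lies below replicate 3 in most genes.

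Of the other members, 60 had a pooled candidate in the window that was not optimal, with signals from 22.4 to 87.9 and a median of 38.8, and 94 had none. No summit of the pooled list or either replicate lay in the window of 65 members (38%), against 48.2% of coding genes. Of the members with a candidate, 22.1% had an optimal one against 14.2% of coding genes, and their median pooled rank was 8021 against 10034. Summits of these weaker candidates also lay in the gene's own coding exon more often, in 46.7% of the 60 members against 19% of the 6819 other coding genes.

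Of the 15 collagens named for phenotypes, 1 had an optimal summit in its window, which is near the background of 5.69%. The 6 furrow collagens dpy-2, dpy-3, dpy-7, dpy-8, dpy-9 and dpy-10, which form the annular furrows of the cuticle, had 0 optimal summits. In the promoter window only dpy-9 and dpy-10 had a pooled candidate, at 23.9 and 47.1, where 40.1% of all coding genes had one. No list had a summit in the windows of dpy-2, dpy-3, dpy-7 or dpy-8. Of the strut collagens, which link the layers of the adult cuticle, bli-2 had no summit in its window in any list. For bli-1 the optimal summit had a pooled signal of 96.5, with 52.5 in replicate 3 and 92.8 in replicate 4, and, as stated, lay in the coding exon of col-80.

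The other 7 body-shape collagens had 0 optimal and 5 candidate summits, where 5.69% of all coding genes had an optimal one and 40.1% a candidate. The highest was at dpy-5, with a pooled signal of 47.2, 35.7 in replicate 3 and no replicate 4 summit. Next was sqt-3, with a pooled signal of 44.0 at a summit 426 bp downstream of the 5' end. Its strongest window summits in replicates 3 and 4 had 41.8 and 18.4. They lay elsewhere, 277 bp downstream and 645 bp upstream. The rol-6, sqt-2 and dpy-13 candidates had pooled signals of 38.3, 33.9 and 32.5, and sqt-1 and lon-3 had no summit in the window in any list. Outside the window rule, pooled candidates below the optimal limit lay in the coding exons of dpy-5, dpy-7, dpy-8, dpy-10, dpy-13, rol-6, sqt-2, sqt-3 and bli-2. All of these values were below the lowest optimal signal. A pooled candidate in coding exons was found in 62.6% of all members and 27.5% of all coding genes. In the windows of 5 genes used as stage markers, col-62 was optimal, col-40 had a weak candidate at 28.8, col-2 had a summit in replicate 3 alone at 20.3, and col-7 had none. The window of col-19 held only a replicate 4 summit, of signal 45.0, since its strong peak lies further into the gene.

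Genes that act on collagens or regulate the epidermis were read from lists in the same windows, and all of the counts have the coding-gene background of 5.69% optimal and 40.1% candidate. Of 14 processing and cross-linking genes, 3 were optimal and 12 had a candidate. The optimal ones were pdi-2, the protein disulfide isomerase subunit of the prolyl 4-hydroxylase that modifies collagens, at 173, 124 and 53.7 in the pooled list, replicate 3 and replicate 4; the thioredoxin-like dpy-11 at 140.3, 75.8 and 70.2; and pdi-1, another protein disulfide isomerase, at 133, 93.1 and 41.1. Their summits lay 62 bp upstream, 282 bp downstream and 342 bp upstream of the 5' end. The window of C14B1.2 had the same replicate signals as that of pdi-1, so this peak is not of pdi-1 alone.

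Of 11 annotated epidermal regulators, 2 were optimal and all 11 had a candidate. These were myrf-1, a membrane-anchored transcription factor, at 111, 69.4 and 39.9, and lin-28, an RNA-binding protein of the heterochronic pathway, at 109, 63.9 and 46.1. Of 10 genes of the Sma/Mab pathway, a TGF-beta pathway that sets body size, 2 were optimal and 8 had a candidate. They were the Smad sma-2, at 106, 63.4 and 40.5, and the zinc finger gene sma-9, at 100.4, 87.6 and 32.0. The replicate 4 summit of sma-9 lay 695 bp upstream of its nearest 5' end, against 192 bp for the pooled one. The window of ugtp-1 had the same replicate signals as that of sma-2, so this peak is not of sma-2 alone. The 35 cuticlins, which are non-collagen cuticle proteins, had 1 optimal gene, cutl-23, and 11 with a candidate. The 3 basement membrane collagens emb-9, let-2 and cle-1 had 0 optimal and 1 candidate. These lists are small, and no test was run on them.

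At several collagens replicate 4 had the higher signal, unlike most genes. Over 1126 coding genes with an optimal summit and a summit in both replicates, the ratio of replicate 3 to replicate 4 signal had a median of 1.76, with 5th and 95th percentiles of 1.04 and 2.91 and an SD of 0.46 on the log2 scale. In the 17 promoter members the median was 1.45, and the range of 0.561 to 3.50 went beyond both percentiles. The ratio was below 1 in 4 members (23.5%), namely bli-1, col-129, col-184 and col-185, against 50 coding genes (4.44%). At the other end was col-42, with 139.5 in replicate 3 and 39.9 in replicate 4. Both replicate summits lay within 100 bp of the pooled one in 13 of 17 members (76.5%) against 977 coding genes (86.8%). The other 4 were col-42, whose replicate 4 summit lay 410 bp from the pooled one, col-184 (replicate 3, 343 bp), col-119 (replicate 4, 160 bp) and bli-1 (replicate 4, 105 bp). The ratios of these genes compare summits at different places.

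Both top lists held 9 of the 17 promoter members (52.9%), against 823 of the 1136 coding genes (72.4%). The 9 were col-119, col-124, col-140, col-159, col-160, col-181, col-185, col-42 and col-85. Only the replicate 3 top list held col-178 and col-38, and only that of replicate 4 held bli-1, col-129, col-184 and col-62. Neither held col-63 or col-72, which is 2 members against 19 coding genes (1.67%). With 2 replicates, variation between worm cultures cannot be estimated for a single gene.

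**Figure D4:**
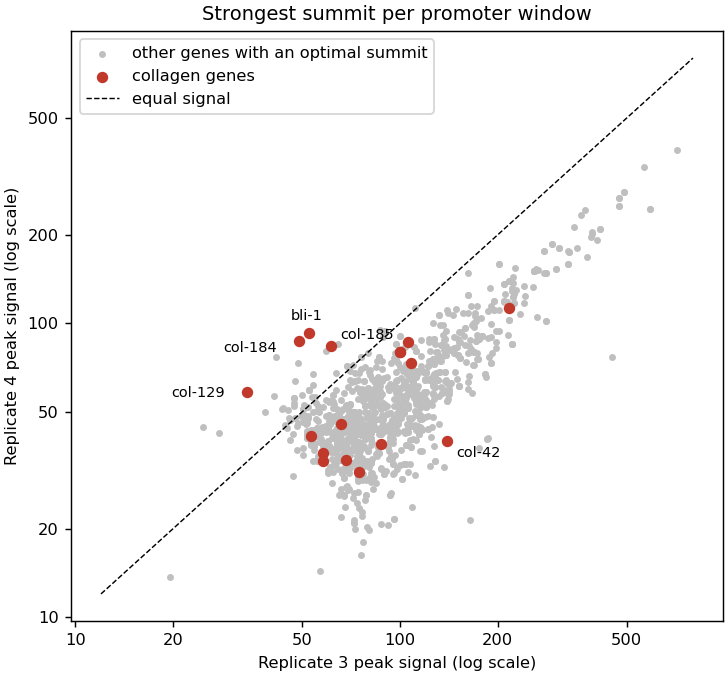
Each point is a gene with an optimal summit in its promoter window, placed by its strongest replicate 3 signal (horizontal) and replicate 4 signal (vertical), both on log axes, with collagens in red and the dashed line at equal signal. Most genes lie below the line, while bli-1, col-129, col-184 and col-185 lie above it and col-42 far below.

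Promoter members lay on all chromosomes but III, where 0 of 12 collagens had an optimal summit although 8.26% of all its coding genes did. The shares were 9.09% of 22 collagens on I, 12.9% of 31 on II, 6.98% of 43 on IV, 12.1% of 33 on V and 13.3% of 30 on X. The coding-gene shares there were 6.12%, 5.33%, 5.06%, 4% and 7.03%. Counts per chromosome were 4 or fewer, so these shares are imprecise. The share was similar for clustered and single collagens: 6 of 53 members with another collagen's 5' end within 5000 bp had an optimal summit, and 11 of the 118 without one did.

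Sequence composition and repeated sequence moved with the coding summits. The median GC content of windows of this size at the 21 collagen coding summits was 61.4%, against 44.6% at the 132 coding summits of other genes and 46.5% at all 1929 optimal summits. Collagen coding sequence is itself GC-rich, at 54.5% over all members and 57.3% over the 15 with a coding summit, against 42.8% over all coding genes. Stretches of 31 bases were all unique in the genome at 16 of the 21 summits (76.2%), against 97.7% of the coding summits of other genes. With only such fully unique summits counted, 12 members (7.02%) and 133 coding genes (0.666%) had a coding summit, so the contrast was also present at unique sequence. The part of GC content in the result was not tested.

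Copies between collagens were found for col-124 and col-119, whose summit windows share 34 identical bases. The col-119 sequence is shown for comparison with that of col-124 above, from chrIV:8979369-8979469 on the minus strand, with glycine codons in capitals.
col-119: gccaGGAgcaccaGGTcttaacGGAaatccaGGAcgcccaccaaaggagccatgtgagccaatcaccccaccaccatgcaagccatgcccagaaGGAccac
In each of the 2 windows, 31 of the 71 stretches of 31 bases occurred elsewhere in the genome (56.3% unique), and copies of the col-124 stretches lay in col-119, col-159, col-85, col-103 and col-160. Signals at these genes may share reads, depending on how repeated reads were placed, which is not given in the sources used here. The col-160 coding summit was the least unique of the collagen coding summits, at 45.1%. There 39 of the 71 stretches were repeated, with copies in col-159, col-12, col-13 and col-40. At col-130 and col-80 the unique share was 85.9% and 94.4%. The summits of col-140, col-122 and col-19 were wholly unique, and these are 3 of the 5 strongest collagens by coding summit.

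Short words seen in the series' peaks were counted at the collagens. Of 8 words searched on both strands of the same windows, ACGCAGA occurred at 7.88% of all optimal summits, CTGCGTC at 7.98%, GAGACGC at 8.29% and CTCTCTC at 9.9%. The word CACGTG occurred at 8.24%, CGCCAGC at 3.58%, TGATAA, which GATA factors recognise, at 9.49%, and AGTGAAA at 2.59%. Of the 17 distinct summits in collagen windows, 1 held CTCTCTC, that of col-85, and none held another of the words. Of the 21 coding summits, 2 held CACGTG (9.52%), at col-140 and col-122, and 1 held GAGACGC, at col-130. At the 132 coding summits of other genes CACGTG occurred in 10.6%, TGATAA in 6.82% and each of the other words in 2.27% or less. The CACGTG share at the collagen coding summits was near that over all optimal summits. Every other word share in both collagen sets was below its share over all optimal summits. The sets overlap, as only 8 of the 17 window summits lay outside collagen coding exons. With so few summits these shares are imprecise, and the difference was not tested. A match is a description of the letters only, and the absence of one says nothing of what the factor binds.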

How the data were processed

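ZTF-26-GFP ChIP-seq peak lists of 2 biological replicates (1 group, mapped through the labels) were analysed. In the peak lists deposited by the authors, each peak has a signal, a −log10 q-value and a summit. The pooled and optimal lists are of the whole series and those of the replicates are inputs to an irreproducible discovery rate analysis, per the file names. The deposited −log10 q-value was 3.63 for every optimal peak and was not used to rank. The aligner, the peak caller and the threshold are not given in the sources used here. No counts were given, so depth is unknown. The ce11 lists were used, and the ce10 lists were not.

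Summits were assigned to Ensembl release 115 genes (WBcel235) when they lay 1000 bp upstream to 500 bp downstream of any transcript 5' end, with the strongest kept, or in the gene's own coding exons. Sequence came from the RefSeq WBcel235 genome, whose chromosome names and lengths were compared with the annotation. Python 3.11.15, NumPy 2.4.6 and SciPy 1.17.1 were used, and the assignment was tested on simulated data. Shares have exact 95% Clopper-Pearson intervals, which cover counting error only. There was no test.

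Members and lists were chosen with earlier results of these data known. The genes named were those with an optimal summit in the window, the 15 phenotype-named members, the 5 strongest outside the optimal list, 5 stage markers, genes nearest to such summits and optimal genes of the lists. Col-80, col-122, col-139, col-39, col-20, col-130's coding peak, and the genes listed by replicate or low glycine share were named after their values were seen. The microRNA gene let-7, on the list of regulators, was not used. Alternatives were other windows, lists and assignments.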

Additional observations from a re-analysis of the deposited data

How the results depend on the processing

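Keeping only the optimal peaks at or above the list's median signal of 131 moved the counts: the promoter members fell from 17 to 7 and the coding genes from 1136 to 625, the members' median signal rose from 122.3 to 173.1, and the genes with a coding-exon summit went from 15 to 6 among collagens and from 139 to 48 among coding genes. That list holds fewer peaks by construction, so its counts could only stay equal or fall. The size of the fall differed between collagens and coding genes. In the promoter window a smaller share of collagens remained, 7 of 17 against 625 of 1136 coding genes. In coding exons a larger share of collagens remained, 6 of 15 against 48 of 139. The reason for these unequal falls was not tested. Of 41 alternatives, only the 4 counts and the median given for that list moved beyond the limits used. The limits were 1.5 times for a count, the spread between replicates for the median, and the exact interval for the downstream share. With 1 replicate's own top list in place of the optimal list, the promoter count was 13 without replicate 4 and 18 without replicate 3, and 12 to 21 over the other windows and assignments. The coding-exon counts, the share of downstream summits and the limit to unique sequence were chosen after seeing the data. The downstream share ran from 42.9% with 2000 bp upstream to 75% with 500 bp. Over all coding genes with an optimal summit it was 9.92% and 18.2% in the same settings. No paired analysis was possible because both replicates belong to 1 group. Unknown depth limits any statement on weak or absent peaks.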
